A study of Arabidopsis thaliana with 15 samples.

Results

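Cyclins, cyclin-dependent kinases (CDKs) and the proteins that inhibit these kinases were followed through shoot regeneration from hypocotyl explants of Arabidopsis thaliana. The set was taken by locus name from the deposited gene counts and held 40 of 33602 genes: 9 D-type, 7 A-type and 9 B-type cyclins, 5 kinases (CDKA;1 and 2 genes each of the CDKB1 and CDKB2 types), the 7 KIP-related proteins KRP1 to KRP7, SIAMESE with its relative SMR1, and the kinase WEE1. All 40 carried that name in the reference annotation, and 39 passed the filter on low counts. The remaining one, CYCD7;1, had 1 count in 1 library, a level of 0.248 CPM (counts after scaling for library size) in library 2 of the CIM group at 27 °C, and 0 in the other 14 libraries.

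The plants were of the Col-0 ecotype and the labels name no mutant or transgene in any group. Seedlings were grown in the dark at 22 °C for 7 days, and hypocotyl pieces were cut from 3 mm above the junction with the root to 5 mm below the junction with the shoot. About 100 explants made 1 sample, so each library is an average over many pieces and tissues. In such bulk RNA, fewer cells of a type and less RNA per cell cannot be told apart. The 5 groups of 3 libraries were explants at 0 h, explants after 4 days on callus-inducing medium (CIM, with the cytokinin kinetin at 0.1 mg/L and the synthetic auxin 2,4-D at 0.5 mg/L) at 17 °C or 27 °C, and explants moved for 4 further days to shoot-inducing medium (SIM, with 0.5 mg/L of the cytokinin 2-iP and 0.15 mg/L of the auxin IAA) at 17 °C or 27 °C. Both media held glucose at 20 g/L and both steps were in continuous light, whereas the seedlings had been in the dark, so hormones, glucose, temperature, light, wounding and time on medium changed together between 0 h and CIM and cannot be told apart there.

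Cyclins are the regulatory partners that switch CDKs on, and they come in classes that act in turn. D-type cyclins, many of them induced by sugar, auxin or cytokinin, pair with CDKA;1 and phosphorylate the retinoblastoma-related protein, which frees E2F factors to start DNA synthesis. A-type cyclins act through S phase and G2, and B-type cyclins with the plant-specific B-type CDKs drive mitosis. KIP-related proteins and the SIAMESE family bind CDK complexes and inhibit them, and SIAMESE is known for moving cells from division to endoreduplication, in which DNA is copied without mitosis. In hypocotyl explants on CIM, divisions start in the pericycle next to the xylem, and the callus they form is the source of shoots on SIM.

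Total counts per library ranged from 3427707 to 4446863. In the CIM group at 27 °C, libraries 1 and 3 differed by less than sampling noise and were counted as 1 sample in group means (n = 2), although the tests took them separately. This was the one pair with 0 genes past a binomial test of their counts. Pairs on SIM were as close over all counts (chi-square per degree of freedom 0.720 and 0.735, against 0.732 here) but had 2 or 3 such genes and were kept apart, so the choice rests on few genes. The standard deviation (SD) printed for CIM at 27 °C leaves out the spread within the merged pair and can look too small. CYCD3;1, for example, was at 149, 143 and 141 CPM in these libraries, with a printed SD of 1.29 CPM. The labels do not say whether libraries of a group came from separate cultures, so a p-value here speaks only of the spread among these libraries, and that spread may be technical. Of the 15 pairs of libraries within groups, 10 differed by no more than sampling noise. Among markers of other tissues, 8 seed maturation transcripts summed to 1108, 5.06 and 801 CPM in libraries 1, 2 and 3 of the 0 h group and to at most 0.872 CPM in any cultured library. In the CIM group at 17 °C, 8 photosynthesis transcripts summed to 212 CPM in library 3 and to 91.6 and 93.7 CPM in libraries 1 and 2. The part of either difference in the results was not tested. For calls described in full that were lost without one of those libraries, the value without it stands beside them.

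The promoters of the B-type cyclins and of 2 inhibitors are shown first, because genes of mitosis are known to be switched on through the mitosis-specific activator element that MYB3R factors bind, whose core is AACGG. The letters AACGG were searched on both strands (the complement reads CCGTT) in 250 bases before each gene. This window ended just before the gene start, taken as the outermost of the deposited start and that in the RefSeq annotation of TAIR10.1. Of 26713 promoters, 20.7% held the core at least once and 3.64% at least 2 times, against 16 and 12 of the 40 genes here. It lay in 6 of 9 B-type cyclin promoters, each time at least 2 times, in 3 of 7 A-type, 1 of 9 D-type, 1 of 5 CDK and 4 of 7 KRP promoters, in WEE1 and in neither SIAMESE nor SMR1. CYCB1;4, CYCB2;4 and CYCB3;1 were the B-type cyclins without these letters in this window. The stretch that holds all matches, with up to 20 bases on either side, is shown for the 6 B-type cyclins, 5′ to 3′ on the strand of the gene, with the core or its complement in capitals. In the order shown they lie at chr4:17624309-17624496 (minus strand), chr5:1861704-1861866 (minus), chr3:3627274-3627357 (minus), chr2:7663898-7664023 (plus), chr4:16901404-16901518 (plus) and chr1:7137851-7137962 (minus), all in TAIR10.1.
CYCB1;1: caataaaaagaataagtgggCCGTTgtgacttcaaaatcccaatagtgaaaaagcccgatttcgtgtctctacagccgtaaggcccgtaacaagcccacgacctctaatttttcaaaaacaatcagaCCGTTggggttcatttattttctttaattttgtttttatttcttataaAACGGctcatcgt
CYCB1;2: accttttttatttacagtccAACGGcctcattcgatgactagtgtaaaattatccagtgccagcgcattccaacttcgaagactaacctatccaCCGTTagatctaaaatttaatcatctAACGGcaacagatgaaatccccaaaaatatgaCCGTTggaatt
CYCB1;3: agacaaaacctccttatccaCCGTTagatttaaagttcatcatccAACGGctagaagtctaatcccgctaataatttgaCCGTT
CYCB2;1: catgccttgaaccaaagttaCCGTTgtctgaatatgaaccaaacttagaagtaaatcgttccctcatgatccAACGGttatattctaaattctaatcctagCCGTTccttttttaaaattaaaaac
CYCB2;2: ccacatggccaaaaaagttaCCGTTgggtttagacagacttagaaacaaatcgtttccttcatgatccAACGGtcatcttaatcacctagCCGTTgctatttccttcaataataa
CYCB2;3: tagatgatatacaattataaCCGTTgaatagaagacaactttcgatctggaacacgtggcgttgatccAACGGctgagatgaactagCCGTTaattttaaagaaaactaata

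KRP1 and KRP7, inhibitors with large changes in the results that follow, also held the core, 6 and 3 times. Their windows lie at chr2:9978092-9978325 on the minus strand (KRP1) and chr1:18366765-18366887 on the minus strand (KRP7), and in KRP1 a pair of matches adjoin.
KRP1: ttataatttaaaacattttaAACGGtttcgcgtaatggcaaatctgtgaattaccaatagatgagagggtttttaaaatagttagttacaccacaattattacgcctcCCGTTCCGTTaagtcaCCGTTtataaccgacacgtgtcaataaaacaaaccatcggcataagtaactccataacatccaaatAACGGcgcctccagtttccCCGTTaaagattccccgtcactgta
KRP7: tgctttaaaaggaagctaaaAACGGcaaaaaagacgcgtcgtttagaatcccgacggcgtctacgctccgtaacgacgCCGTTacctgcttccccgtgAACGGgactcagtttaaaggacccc
A match describes the letters of a window and is not a binding site. E2F sites, searched as TTTCCCGC, TTTCGCGC, TTTGCCGC and TTTGGCGC on both strands, lay in 1.40% of all promoters and in 1 of the 40 here, that of CYCD3;3.

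Levels were compared between genes as CPM per kilobase of exon, since longer transcripts collect more reads. At 0 h the highest level of the set belonged to SIAMESE, at 125.6 CPM per kilobase, followed by CDKA;1 at 54.3 and CYCD3;1 at 53.5. In all 4 cultured groups CYCD3;1 was highest, at 72.2 and 76.9 CPM per kilobase on CIM at 17 °C and 27 °C and 77.5 and 92.3 on SIM. SIAMESE stood at 44.2 and 24.4 CPM per kilobase on CIM and at 44.6 and 52.5 on SIM. Apart from CYCD7;1, the lowest level in the cultured groups was that of CYCD4;2 or, on CIM at 27 °C, KRP1. All further levels are CPM, compared within a gene or within a sum over the same genes. Such sums are not corrected for transcript length, so abundant or long transcripts weigh most in them.

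**Figure D1:**
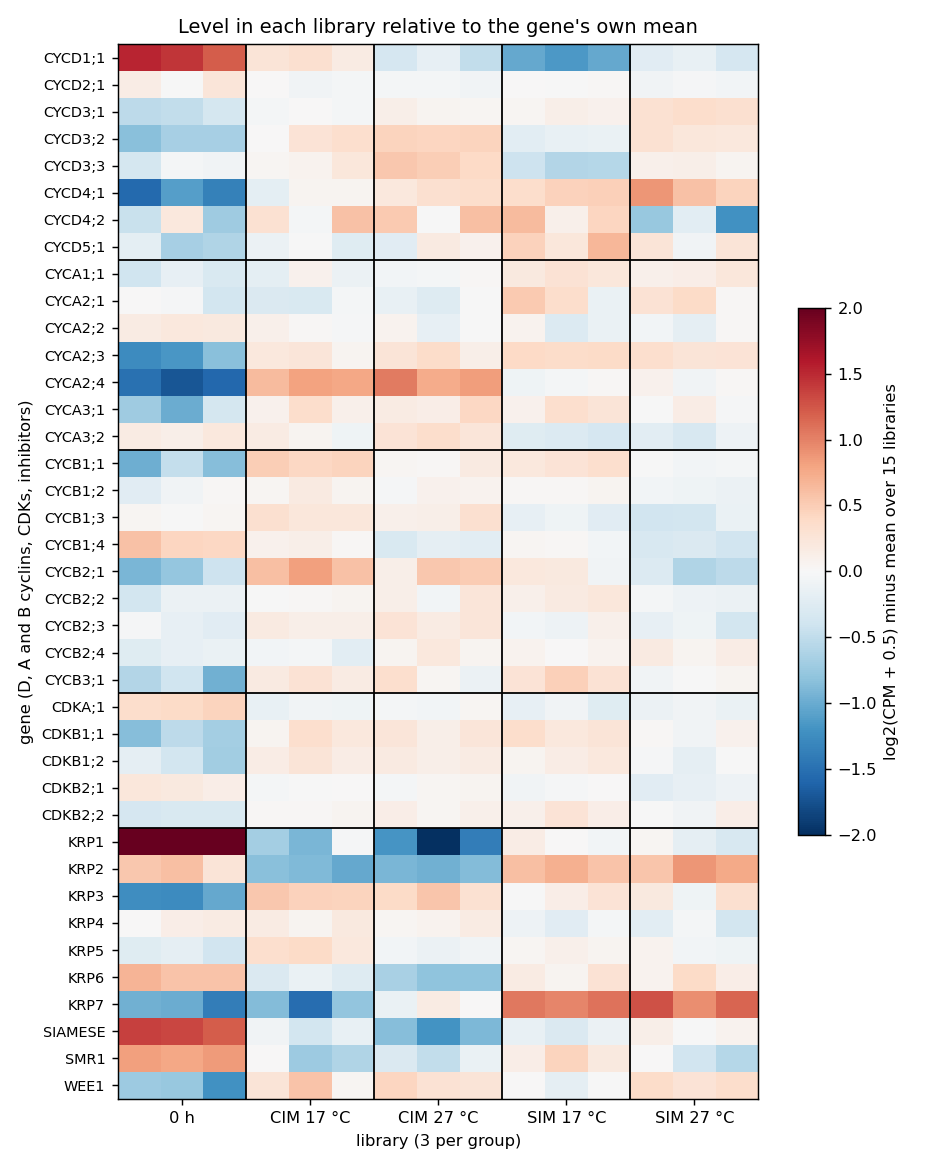
Level of the 39 genes that passed the filter in each of the 15 libraries, as log2(CPM + 0.5) minus the mean of the gene over all libraries, grouped by class. KRP1, SIAMESE and CYCD1;1 are highest at 0 h, CYCA2;4 on CIM and KRP7 on SIM.

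The first comparison asked which parts of the machinery changed between fresh explants and callus medium. Inhibitors and D-type cyclins moved in both directions, while most A-type and B-type cyclins that changed rose. By edgeR's quasi-likelihood test with Benjamini-Hochberg adjustment at 0.05, 21 of 39 genes rose and 10 fell on CIM at 17 °C, where 77.2% of 20704 tested genes were called, 37.7% higher and 39.5% lower. On CIM at 27 °C 21 rose and 10 fell, where 79.8% of all genes were called, 39.5% higher and 40.4% lower. The share called was thus near the background at both temperatures. The median log2 change of the 39 genes was 0.24 and 0.32, beside −0.01 and 0.00 over all genes. Both comparisons use the 0 h libraries, so their values are given side by side. With 0 h library 2 alone, the one with few seed maturation transcripts, 24 and 26 genes were called. That single library was assumed to vary like the other groups, and a smaller n alone can lose calls. The 12 calls lost, 7 at 17 °C and 5 at 27 °C, were of log2 changes between -0.20 and 0.32, in cyclins of all 3 types and a CDK, and became changes between -0.18 and 0.30 (adjusted p = 0.0501 to 0.936). No call of an inhibitor was among them.

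KRP1 (AT2G23430, chr2:9976746-9978021), an inhibitor of CDKA complexes with D-type cyclins, had the strongest fall in this step. Its level was 28.2, 30.7 and 28.4 CPM at 0 h, 3.49, 2.88 and 5.79 CPM on CIM at 17 °C and 2.30, 0.993 and 1.95 CPM on CIM at 27 °C. Every 0 h library lay far above every cultured library. The fall was 7.07-fold at 17 °C (log2 change −2.82 ± 0.19 SE, adjusted p = 3.69e-15) and 16.1-fold at 27 °C (−4.01 ± 0.22, adjusted p = 1.29e-17) by edgeR.

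SIAMESE (AT5G04470, chr5:1266625-1267416) was the most abundant inhibitor at 0 h and also fell. It was at 104, 102 and 93.3 CPM at 0 h, 38.1, 30.8 and 36.2 CPM on CIM at 17 °C and 21.9, 17.1 and 21.2 CPM on CIM at 27 °C. The 3 groups did not overlap and were ordered 0 h, 17 °C, 27 °C from high to low. The fall was 2.85-fold (−1.51 ± 0.07, adjusted p = 3.7e-19) at 17 °C and 4.92-fold (−2.30 ± 0.08, adjusted p = 4.97e-23) at 27 °C. SMR1 (AT3G10525), which promotes endoreduplication in sepals and leaves, fell from 25.4 ± 0.66 CPM (SD, n = 3) to 10.6 ± 3.17 and 11.1 ± 1.65 CPM. The summed level of SIAMESE and SMR1 was 119 to 129 CPM at 0 h, 39.2 to 52.3 CPM on CIM at 17 °C and 27.1 to 34.2 CPM at 27 °C.

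The other KRP genes did not move as one. KRP2 (AT3G50630), an inhibitor known to restrain lateral root initiation, fell from 31.7 ± 3.93 CPM to 11.8 ± 0.844 and 11.7 ± 0.369 CPM on CIM. KRP6 (AT3G19150) fell from 23.2 ± 1.13 to 12.8 and 8.70 CPM. KRP3 (AT5G48820) went the other way, from 5.75, 5.66 and 6.73 CPM to 20.9, 19.7 and 19.5 CPM at 17 °C and 18.7, 21.1 and 17.8 CPM at 27 °C, a log2 rise of 1.72 ± 0.17 at 17 °C and 1.65 at 27 °C (adjusted p = 4.39e-11 and 8.3e-11, edgeR). KRP5 rose at 17 °C, from 16.6 to 25.0 CPM, and stood at 18.8 CPM at 27 °C without passing the test (adjusted p = 0.207). KRP7 rose at 27 °C, from 4.37 to 10.3 CPM, and stood at 4.64 CPM at 17 °C (adjusted p = 0.825). KRP4 was at 53.7 ± 3.09 CPM at 0 h and 55.0 ± 2.93 and 53.1 ± 1.05 CPM on CIM and passed at neither temperature. In all, 2 KRP genes rose and 3 fell at each temperature, and the summed KRP level was 160 to 171 CPM at 0 h, 129 to 136 CPM at 17 °C and 122 to 125 CPM at 27 °C.

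Among D-type cyclins, CYCD1;1 (AT1G70210, chr1:26439864-26442829) fell and the CYCD3 and CYCD4;1 genes rose. CYCD1;1 was at 98.7, 93.2 and 79.6 CPM at 0 h, 41.0, 42.8 and 38.4 CPM on CIM at 17 °C and 27.0, 30.5 and 24.1 CPM on CIM at 27 °C. The groups did not overlap, with 0 h highest and 27 °C lowest. Its log2 change was −1.15 ± 0.08 at 17 °C and −1.74 ± 0.08 at 27 °C (adjusted p = 2.93e-15 and 2.62e-19, edgeR). The 3 CYCD3 genes, which mediate the effect of cytokinin on division in shoot tissue, all rose at both temperatures. CYCD3;2 (AT5G67260) changed most among them, from 27.3 ± 1.85 CPM to 52.4 ± 6.25 and 61.2 ± 0.498 CPM. CYCD3;1 (AT4G34160) went from 100 ± 6.69 to 135 ± 2.37 and 144 ± 1.29 CPM, and CYCD3;3 (AT3G50070) from 33.2 ± 3.86 to 39.8 ± 2.95 and 51.4 ± 0.292 CPM. The CYCD3;3 call at 17 °C (log2 0.26, adjusted p = 0.0141) was lost without 0 h library 1 (0.19, adjusted p = 0.117) or library 3 of CIM (0.23, adjusted p = 0.0675). CYCD4;1 (AT5G65420), a cyclin active in pericycle and stomatal lineage divisions, had the highest rise of the class, from 5.06 ± 0.862 CPM to 13.2 and 16.7 CPM (log2 1.39 ± 0.20 and 1.71 ± 0.18). CYCD5;1 rose at 27 °C, from 9.64 to 14.2 CPM, a call that held in all alternatives, and stood at 12.4 CPM at 17 °C without passing the test. CYCD2;1 varied least of the class, with group means from 52.7 to 59.9 CPM, and its calls on CIM (-0.18 at each temperature) were lost without 0 h library 1 (-0.15 and -0.17, adjusted p = 0.132 and 0.0777) or library 3 (-0.09 and -0.12, adjusted p = 0.38 and 0.244). Summed over the class, D-type cyclins were at 326 to 331 CPM at 0 h, 340 to 355 CPM on CIM at 17 °C and 363 to 375 CPM at 27 °C.

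CYCA2;4 (AT1G80370, chr1:30213705-30216861) had the strongest rise of the set in this step. The CYCA2 cyclins work with CDKB1 and hold back endoreduplication. CYCA2;4 was at 11.2, 9.53 and 10.5 CPM at 0 h, 50.3, 56.7 and 55.5 CPM on CIM at 17 °C and 66.8, 54.6 and 58.1 CPM on CIM at 27 °C. All 6 CIM libraries lay far above the 0 h libraries, and the temperatures overlapped. The rise was 5.21-fold (log2 2.38 ± 0.11, adjusted p = 3.1e-19) at 17 °C and 5.74-fold (2.52 ± 0.11, adjusted p = 1.58e-20) at 27 °C. CYCA2;3 (AT1G15570), of the same subfamily, rose from 16.8 ± 2.69 to 40.7 and 43.8 CPM. CYCA3;1 rose from 7.23 ± 1.72 to 13.4 ± 1.51 and 13.7 ± 1.11 CPM. CYCA1;1, a cyclin of G2 and mitosis, was called higher at 34.7 ± 2.89, 40.6 ± 4.29 and 41.6 ± 0.599 CPM, but both calls were lost without 0 h library 1 (log2 0.20 and 0.22, adjusted p = 0.101 and 0.0566) and that at 17 °C without library 2 of CIM (0.16, adjusted p = 0.204). The 3 other A-type cyclins, CYCA2;1, CYCA2;2 and CYCA3;2, were not called. The A-type sum was 151 to 161 CPM at 0 h and 219 to 253 CPM over the 6 CIM libraries.

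Of the 9 B-type cyclins, 7 rose and 1 fell at 17 °C, and 6 rose and 1 fell at 27 °C. CYCB1;1 (AT4G37490), widely used as a reporter of cells in G2 and mitosis, was at 16.1, 22.9 and 17.6 CPM at 0 h, 45.1, 43.0 and 43.7 CPM on CIM at 17 °C and 33.0, 32.5 and 36.2 CPM on CIM at 27 °C. Its 3 groups did not overlap, with 17 °C highest, and the log2 rise was 1.22 ± 0.10 and 0.85 (adjusted p = 3.95e-13 and 4e-09). CYCB2;1 (AT2G17620) rose from 8.61 ± 1.71 CPM to 22.9 ± 2.22 and 19.4 ± 2.09 CPM. CYCB3;1 rose from 14.1 ± 2.80 to 25.7 ± 1.29 and 23.4 ± 1.17 CPM. The other calls of this class were rises of 0.18 to 0.28 log2 units at 17 °C and 0.29 to 0.37 at 27 °C, of which only that of CYCB2;3 held at both temperatures in every alternative. CYCB1;4 (AT2G26760) was the one that fell, from 76.1 ± 5.20 to 57.4 ± 2.05 and 46.8 ± 1.87 CPM. The gene spans of CYCB1;2, CYCB2;3 and CYCB3;1, introns included, hold stretches of at least 50 bases that match a further stretch of the genome at 95% identity or more. Whether these matches lie in exons or in another gene was not examined, so how reads of those stretches were divided is uncertain.

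Among the kinases, CDKA;1 (AT3G48750), the main CDK of the entry into S phase, fell modestly from 79.0, 80.7 and 84.3 CPM at 0 h to 55.5, 58.6 and 57.9 CPM at 17 °C and 60.2, 59.3 and 63.1 CPM at 27 °C. The 0 h libraries lay above all CIM libraries, and the log2 change was −0.50 and −0.42 (adjusted p = 1.1e-09 and 2.17e-08, edgeR). CDKB1;1 (AT3G54180), a mitotic kinase, rose from 21.6 ± 2.52 to 40.2 and 39.6 CPM, and CDKB1;2 from 23.9 to 36.0 and 34.9 CPM. CDKB2;2 rose by 0.35 and 0.42 on the log2 scale. CDKB2;1 was called lower at both temperatures, but that call held in only 4 of 14 and 4 of 15 alternative analyses. CDKB1;2 and CDKB2;1 overlap a gene on the opposite strand by 20 and 44 bases, and the labels do not give whether counting used the strand. WEE1 (AT1G02970), a kinase that stops the cycle when DNA replication is disturbed, rose from 8.95 ± 1.67 to 21.1 ± 4.09 and 21.3 ± 0.601 CPM.

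Markers of several tissues moved over the same step. Root tip markers went from 7.27 to 8.78 CPM in sum at 0 h to 124 to 159 CPM over the CIM libraries. Xylem markers summed to 788 to 856 CPM at 0 h, 380 to 409 CPM on CIM at 17 °C and 272 to 289 CPM at 27 °C, with VND7 alone of the 6 overlapping between 0 h and CIM at 17 °C (14.9 to 20.3 and 16.8 to 19.8 CPM). Phloem markers went from 393 to 448 CPM to 101 to 125 CPM at 17 °C and 145 to 162 CPM at 27 °C. The 3 endodermis markers, 227 to 243 CPM in sum at 0 h and 144 to 162 CPM on CIM, did not move together. CASP1, which marks the Casparian strip, went from 54.7 to 74.5 CPM to at most 0.965 CPM and MYB36 from 47.1 to 52.1 CPM to at most 5.07 CPM, whereas SCR was higher in every CIM library (138 to 158 CPM) than in every 0 h library (120 to 133 CPM). The epidermis sum, 312 to 338 CPM at 0 h and 320 to 373 CPM on CIM, likewise joined members that went opposite ways. PDF1 went from 17.9 to 36.9 CPM to 131 to 145 CPM, ATML1 from 63.2 to 71.8 CPM to 26.7 to 38.4 CPM, and FDH from 212 to 248 CPM to 156 to 199.6 CPM. Their part in the changes of cyclins and inhibitors was not tested.

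**Figure D2:**
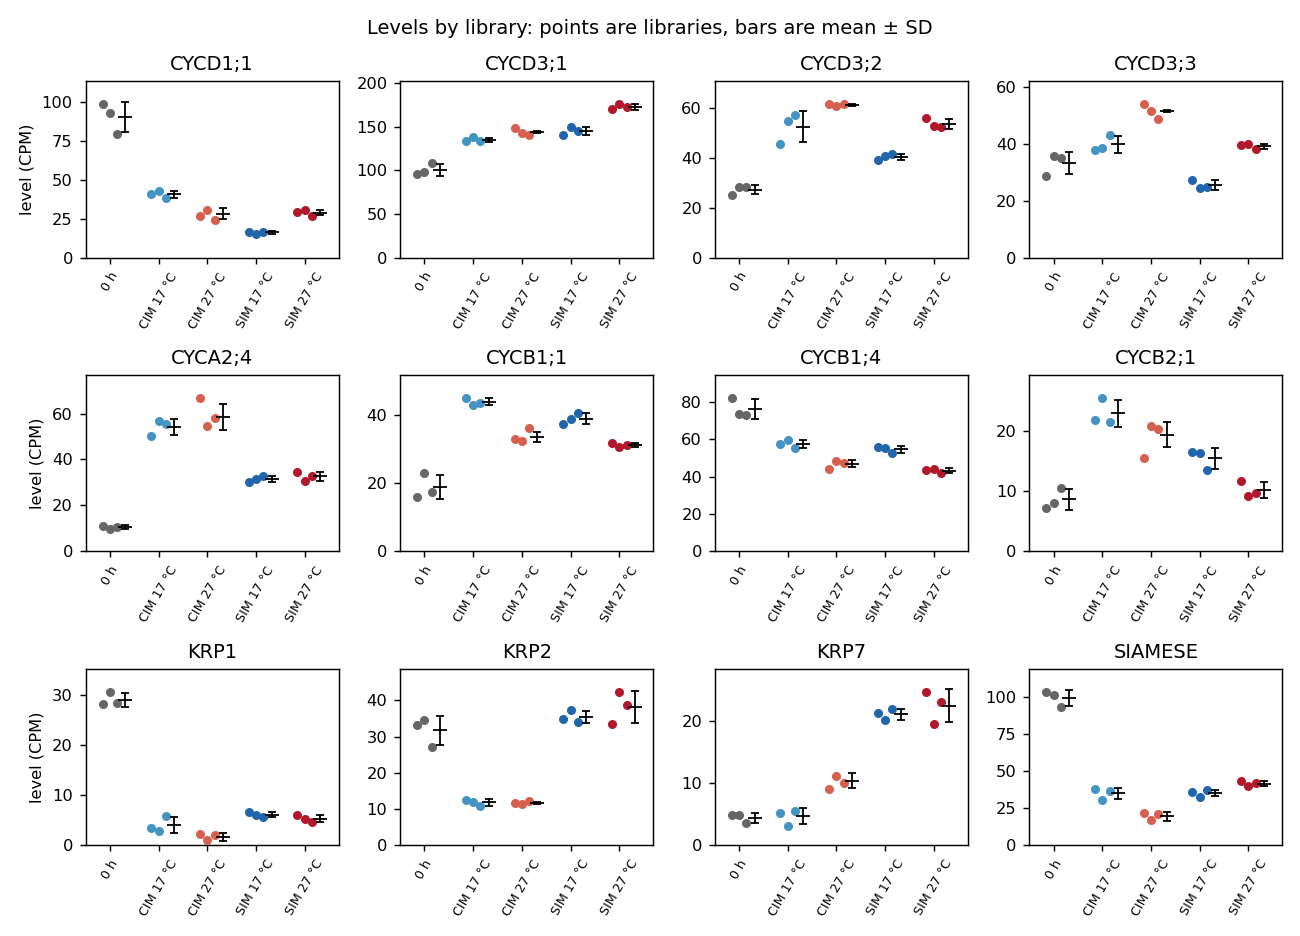
Level in CPM of 12 genes in each library (points) with the group mean (bars, SD as error, n = 3). For CIM at 27 °C n = 2, and the SD leaves out the spread within the merged pair of libraries. KRP1 and SIAMESE drop after 0 h, CYCA2;4 peaks on CIM, and KRP7 is highest on SIM.

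The move from CIM to SIM, compared at the same labelled temperature, changed KRP genes in both directions, 3 up and 2 down at 17 °C and 4 up and 1 down at 27 °C. On SIM at 17 °C against CIM at 17 °C, 8 of 39 genes rose and 10 fell by edgeR, where 48.1% of all genes were called, 24.7% higher and 23.4% lower. At 27 °C 7 rose and 11 fell, where 49.7% of all genes were called, 24.9% higher and 24.8% lower. The median log2 change was 0.02 and −0.09, beside 0.00 and −0.01 over all genes. Medium and time on medium changed together in this step and cannot be told apart.

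KRP2 rose back to about its level at 0 h. It was at 34.7, 37.3 and 34.0 CPM on SIM at 17 °C and 33.6, 42.4 and 38.7 CPM on SIM at 27 °C, every library above the highest CIM library at 12.5 CPM. The log2 rise was 1.58 ± 0.12 at 17 °C and 1.69 ± 0.11 at 27 °C (adjusted p = 2.84e-13 and 8.98e-15, edgeR). Against 0 h, KRP2 on SIM was 0.16 higher on the log2 scale at 17 °C, which did not pass the test, and 0.27 higher at 27 °C (adjusted p = 0.0119). The last call was lost without 0 h library 3 (0.18, adjusted p = 0.135) and without library 2 of SIM at 27 °C (0.19, adjusted p = 0.117).

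KRP7 (AT1G49620, chr1:18365491-18366559) rose on SIM at both temperatures to the highest levels it had in the series. It was at 5.23, 3.12 and 5.55 CPM on CIM at 17 °C and 21.3, 20.0 and 21.8 CPM on SIM at 17 °C. At 27 °C it was at 8.99, 11.2 and 9.97 CPM on CIM and 24.6, 19.4 and 23.0 CPM on SIM. Each SIM library exceeded each CIM library, and the SIM groups of both temperatures overlapped. The rise was 4.55-fold (log2 2.19 ± 0.18, adjusted p = 2.46e-12) at 17 °C and 2.23-fold (1.16 ± 0.14, adjusted p = 1.94e-08) at 27 °C. Against 0 h the log2 difference on SIM was 2.26 ± 0.19 and 2.35 ± 0.19.

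SIAMESE and KRP1 passed the test in this step at 27 °C and not at 17 °C. The difference between the 2 steps is the same contrast as the difference between the temperature effects tested further on, where SIAMESE passed and KRP1 did not. SIAMESE rose at 27 °C, to 43.2, 39.6 and 41.9 CPM (log2 1.04 ± 0.09, adjusted p = 1.92e-11), while at 17 °C it was at 36.1, 32.7 and 37.0 CPM, a log2 difference of 0.02 from CIM (adjusted p = 0.876). KRP1 rose at 27 °C, from 1.56 to 5.27 CPM (1.56 ± 0.31, adjusted p = 6.43e-05), and went from 4.05 to 6.07 CPM at 17 °C without passing the test (adjusted p = 0.0662). Both remained far under 0 h on SIM, KRP1 by 2.25 and 2.46 and SIAMESE by 1.49 and 1.26 log2 units. KRP4 fell at both temperatures, from 55.0 to 45.9 CPM and from 53.1 to 43.4 CPM (log2 -0.25 and -0.30, adjusted p = 0.00625 and 0.000708), and these calls held in all alternatives. KRP3 fell at 17 °C, to 15.7 CPM (-0.35, adjusted p = 0.0305), a call lost without library 1 of SIM (-0.29, adjusted p = 0.129) and without library 1 or 2 of CIM (adjusted p = 0.0826 and 0.0555). KRP6 rose at both temperatures, by 0.41 and 0.99 on the log2 scale, and its call at 17 °C was lost without library 1 or 3 of CIM (adjusted p = 0.0511 and 0.0612) or library 3 of SIM (adjusted p = 0.0877). SMR1 rose at 17 °C, from 10.6 to 17.2 CPM (0.71, adjusted p = 0.000686), and was at 11.5 CPM at 27 °C. The summed KRP level on SIM was 159 to 167 CPM at 17 °C and 158 to 168 CPM at 27 °C, within or next to the 160 to 171 CPM of 0 h, although the genes that made it up differed. At each temperature 3 KRP genes were lower than at 0 h (KRP1, KRP4 and KRP6) and 3 were higher, KRP3 and KRP7 at both. KRP4 was lower by 0.22 and 0.31 log2 units and KRP6 by 0.44 and 0.41. The calls of KRP6 were lost with 0 h library 2 alone (-0.39 and -0.36, adjusted p = 0.0712 and 0.0868), as was that of KRP4 at 17 °C (-0.24, adjusted p = 0.0766).

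Several cyclins that were high on CIM fell on SIM. CYCA2;4 was at 30.2, 31.4 and 32.8 CPM on SIM at 17 °C and 34.5, 30.7 and 32.9 CPM at 27 °C, below all CIM libraries and above all 0 h libraries. The log2 change was −0.79 ± 0.08 and −0.87 ± 0.07 (adjusted p = 4.6e-10 and 7.2e-12, edgeR). CYCB2;1 fell to 15.4 ± 1.70 and 10.2 ± 1.32 CPM. CYCB1;3 fell from 44.7 to 33.4 CPM at 17 °C and by 0.49 log2 units at 27 °C, and CYCA3;2 by 0.33 and 0.50. The CYCD3;2 and CYCD3;3 genes fell at both temperatures as well. For the former the call at 27 °C, a log2 change of −0.19 (adjusted p = 0.0214), was lost without any 1 of 4 libraries (adjusted p = 0.0577 to 0.0859). CYCA2;3 was at 47.1 and 44.2 CPM, close to CIM, and its call at 17 °C was lost without library 3 of CIM (0.14, adjusted p = 0.253). CYCD4;1 rose to 18.3 and 21.4 CPM, and its call at 27 °C was lost without library 1 of SIM (0.23, adjusted p = 0.216) or of CIM (0.33, adjusted p = 0.0586). CYCD5;1 rose at 17 °C, from 12.4 to 18.9 CPM (log2 0.61, adjusted p = 0.00107), with no call at 27 °C.

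CYCD1;1 fell again at 17 °C and not at 27 °C. On SIM at 17 °C it was at 16.5, 15.2 and 16.6 CPM, below every other library of the series, with a log2 change of −1.33 ± 0.11 from CIM (adjusted p = 4.25e-12). At 27 °C it was at 29.1, 30.7 and 27.0 CPM on SIM, overlapping the CIM libraries (log2 0.10, adjusted p = 0.475). CYCD3;1 rose at 27 °C, from 144 to 173 CPM (0.26, adjusted p = 7.48e-07), and at 17 °C was at 145 CPM (0.10, adjusted p = 0.0839).

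Over this step, phloem markers went to 370 to 388 CPM at 17 °C and 352 to 358 CPM at 27 °C, and xylem markers to 489 to 515 CPM and 372 to 383 CPM. Root tip markers went from 124 to 159 CPM on CIM to 0.230 to 9.92 CPM on SIM, and epidermis markers from 320 to 373 CPM to 75.2 to 90.0 CPM. Photosynthesis markers summed to 323 to 347 CPM at 17 °C and 467 to 483 CPM at 27 °C. Their part in the changes of the set was not tested.

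Against 0 h, SIM explants at 17 °C had 20 genes of the set higher and 12 lower, where 76.5% of all genes were called, 38.8% higher and 37.8% lower. At 27 °C 19 were higher and 13 lower, where 78.4% of all genes were called, 38.5% higher and 39.9% lower. The median log2 change was 0.37 and 0.25, beside 0.03 and −0.00 over all genes. CYCD4;1 was higher by 1.84 and 2.07 log2 units and CYCA2;4 by 1.59 and 1.65. CYCB2;1 was higher by 0.83 at 17 °C and stood 0.24 above 0 h at 27 °C without passing the test. CYCD1;1 was lower by 2.48 and 1.64 and WEE1 higher by 0.87 and 1.26. With 0 h library 2 alone, 25 and 23 genes were called, again with 1 sample in that arm.

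**Figure D3:**
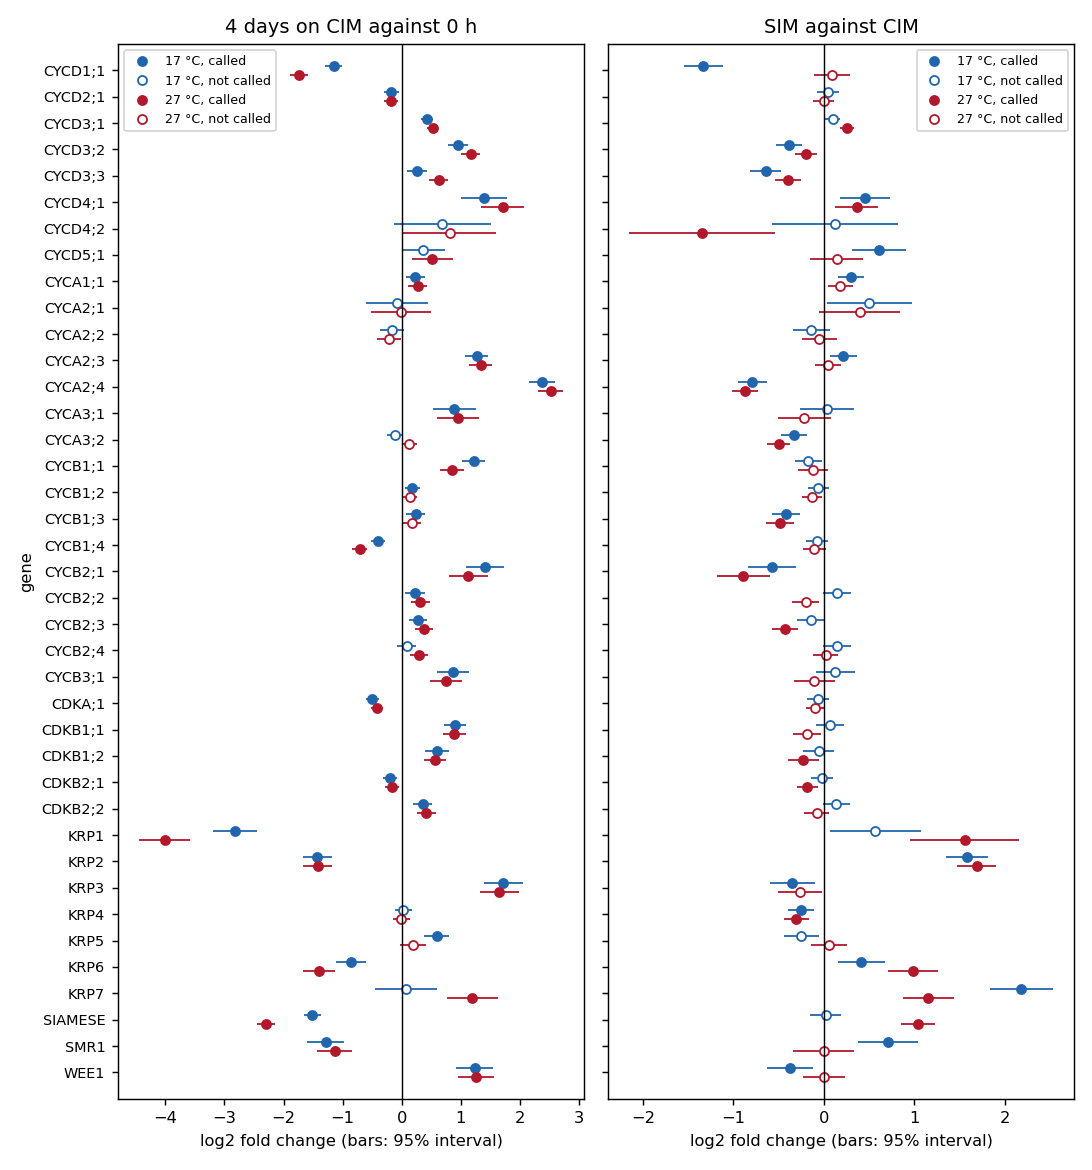
Log2 change of each gene from 0 h to CIM and from CIM to SIM at 17 °C and 27 °C, with the 95% interval as bars. KRP2 falls and returns at both temperatures, KRP7 rises on SIM at both, and SIAMESE and CYCD1;1 differ between temperatures in the step to SIM.

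The effect of temperature was asked separately on each medium. SIM explants carry a single labelled temperature and had first spent 4 days on CIM. Differences that arose in that earlier step and on SIM cannot be told apart. On CIM, explants at 27 °C had less of several inhibitors than those at 17 °C and more of KRP7. By edgeR's quasi-likelihood test with Benjamini-Hochberg adjustment, 4 of 39 genes were higher and 7 lower at 27 °C, where 42.6% of all genes were called, 21.6% higher and 21.0% lower. The median log2 change of the set was 0.03, beside 0.02 over all genes. Of the 11 calls, 8 held in all alternative analyses. In the same libraries, xylem markers were lower at 27 °C (272 to 289 against 380 to 409 CPM) and the sum of the 3 phloem markers higher (145 to 162 against 101 to 125 CPM). APL and SEOR1 made up that difference, while SUC2 was not higher, at 47.2 to 53.9 CPM against at most 63.9 CPM with overlapping groups. The part of these tissues in the differences was not tested.

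SIAMESE, whose CIM libraries are given above, was 1.72-fold lower at 27 °C (log2 −0.79 ± 0.10, adjusted p = 7.68e-08). KRP1 was lower by 1.19 ± 0.33 on the log2 scale (adjusted p = 0.00398). Without library 3 at 17 °C, the one with more photosynthesis transcripts, its log2 difference was −0.84 and the call was lost (adjusted p = 0.105). KRP5 (AT3G24810) was at 25.3, 26.2 and 23.4 CPM at 17 °C and 19.4, 18.4 and 19.1 CPM at 27 °C, and KRP6 at 12.2, 13.7 and 12.5 CPM and 9.45, 8.44 and 8.45 CPM. Neither gene overlapped between temperatures, and their log2 differences were −0.40 ± 0.10 and −0.55 ± 0.15 (adjusted p = 0.00495 and 0.00658). KRP7 was the exception among the called inhibitors, with a log2 difference of 1.12 ± 0.21 (adjusted p = 4.37e-05), each 27 °C library above each 17 °C library. KRP2, KRP3 and KRP4 were not called.

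Some cyclins also differed on CIM. CYCD1;1 was lower at 27 °C (−0.59 ± 0.10, adjusted p = 5.72e-06) and CYCD3;3 higher (0.36 ± 0.07, adjusted p = 0.000154). The mitotic cyclins CYCB1;1 and CYCB1;4 were lower by 0.37 and 0.31 log2 units. CYCD3;2 and CYCA3;2 were called higher by 0.21 and 0.24 log2 units, and both calls were lost in the DESeq2 test (adjusted p = 0.095 and 0.0578). The first of these was also lost without library 1 at 17 °C, with a log2 difference of 0.13 (adjusted p = 0.217), and without library 1 or 3 at 27 °C (adjusted p = 0.0615 and 0.0643). The second was lost without library 3 at 17 °C, at 0.16 (adjusted p = 0.15). None of the 5 CDK genes nor WEE1 nor SMR1 was called on CIM.

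On SIM, 4 of the 5 called D-type cyclins were higher at 27 °C and the 5 called B-type cyclins were lower, while 3 of 8 and 4 of 9 genes of these classes were not called. The difference between the classes was not tested. By edgeR 6 of 39 genes were higher and 8 lower, where 43.6% of all genes were called, 20.7% higher and 22.9% lower, and the median log2 change was −0.09, beside −0.00 over all genes. Of the 14 calls, 8 held in all alternative analyses, and the DESeq2 test called 9.

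Of the 8 D-type cyclins tested, 4 were higher and 1 lower at 27 °C. CYCD1;1 was higher by 0.84 ± 0.12 on the log2 scale (adjusted p = 4.67e-07). CYCD3;1 was at 141, 150 and 146 CPM at 17 °C and 170, 176 and 173 CPM at 27 °C, CYCD3;2 at 39.0, 40.9 and 41.4 CPM and 55.8, 52.7 and 52.3 CPM. CYCD3;3 was at 27.4, 24.4 and 24.7 CPM at 17 °C and 39.4, 39.8 and 38.0 CPM at 27 °C. In all 3 CYCD3 genes each 27 °C library lay above each 17 °C library, with log2 differences of 0.25 ± 0.04, 0.41 ± 0.07 and 0.61 ± 0.09 (adjusted p = 2.4e-06, 1.49e-05 and 5.46e-07). CYCD4;2, the one called lower, had few reads, at 3.78, 2.44 and 3.18 CPM and 1.12, 1.87 and 0.691 CPM. Its log2 difference of −1.35 ± 0.42 (adjusted p = 0.00868) lost its call without library 1 at 17 °C (−1.18, adjusted p = 0.0531) and without library 3 at 27 °C (−1.06, adjusted p = 0.0615). The D-type sum was 318 to 327 CPM on SIM at 17 °C and 378 to 389 CPM at 27 °C.

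Of the 9 B-type cyclins, 5 were lower at 27 °C on SIM and none was higher. CYCB2;1 was at 16.5, 16.2 and 13.5 CPM at 17 °C and 11.6, 9.14 and 9.67 CPM at 27 °C (log2 −0.60 ± 0.16, adjusted p = 0.00256). CYCB1;1 was at 37.3, 39.0 and 40.6 CPM at 17 °C and 31.8, 30.7 and 31.3 CPM at 27 °C, and CYCB1;4 at 56.0, 55.2 and 52.6 CPM and 43.7, 44.3 and 41.7 CPM. None of these 3 genes overlapped between temperatures, and the log2 differences of the last pair were −0.32 ± 0.08 and −0.34 ± 0.06 (adjusted p = 0.004 and 0.000222). CYCB2;2 and CYCB3;1 were lower by 0.25 and 0.35 log2 units, and the DESeq2 test did not call them (adjusted p = 0.0729 and 0.054). The former also lost its call without library 3 of either SIM group (adjusted p = 0.0578 and 0.0592), and the latter without library 2 at 17 °C, with a log2 difference of −0.29 (adjusted p = 0.0691). The 4 other B-type cyclins had log2 differences of −0.12, −0.14, −0.19 and 0.08, none past the test. The B-type sum was 355 to 361 CPM at 17 °C and 307 to 315 CPM at 27 °C.

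The A-type cyclins had no call on SIM, with 201 to 213 CPM in sum at 27 °C and 209 to 213 CPM at 17 °C. Of the kinases, CDKB1;1 was lower at 27 °C (35.6, 33.0 and 37.1 CPM against 44.4, 40.6 and 41.8 CPM, log2 −0.26 ± 0.08, adjusted p = 0.0124). That call was lost in the DESeq2 test (adjusted p = 0.0657), without library 1 at 17 °C (0.0818) and without library 2 at 27 °C (0.073). WEE1 was higher, at 21.9, 20.6 and 21.7 CPM against 17.0, 14.9 and 16.9 CPM (0.39 ± 0.13, adjusted p = 0.0129), and was lost without library 2 at 17 °C, with a log2 difference of 0.34 (adjusted p = 0.0614), and in the DESeq2 test (adjusted p = 0.0536). No KRP gene was called on SIM. SMR1 was lower at 27 °C (15.6, 19.5 and 16.4 CPM at 17 °C, 14.3, 10.8 and 9.44 CPM at 27 °C, log2 −0.56 ± 0.16, adjusted p = 0.00486). SIAMESE was higher by 0.23 ± 0.08 (adjusted p = 0.03), a call lost without library 2 at 17 °C (0.19, adjusted p = 0.135), without library 1 at 27 °C (0.21, adjusted p = 0.105), without library 3 at 27 °C (0.23, adjusted p = 0.0618) and in the DESeq2 test (adjusted p = 0.0894). Shoot apex markers, absent or near 0 before SIM, summed to 5.14 to 6.62 CPM at 17 °C and 19.9 to 25.5 CPM at 27 °C. Endodermis markers were at 88.1 to 95.8 CPM at 17 °C and 37.3 to 39.6 CPM at 27 °C, xylem markers at 489 to 515 CPM and 372 to 383 CPM, and photosynthesis markers at 323 to 347 CPM and 467 to 483 CPM. The part of these tissues in the differences was not tested.

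**Figure D4:**
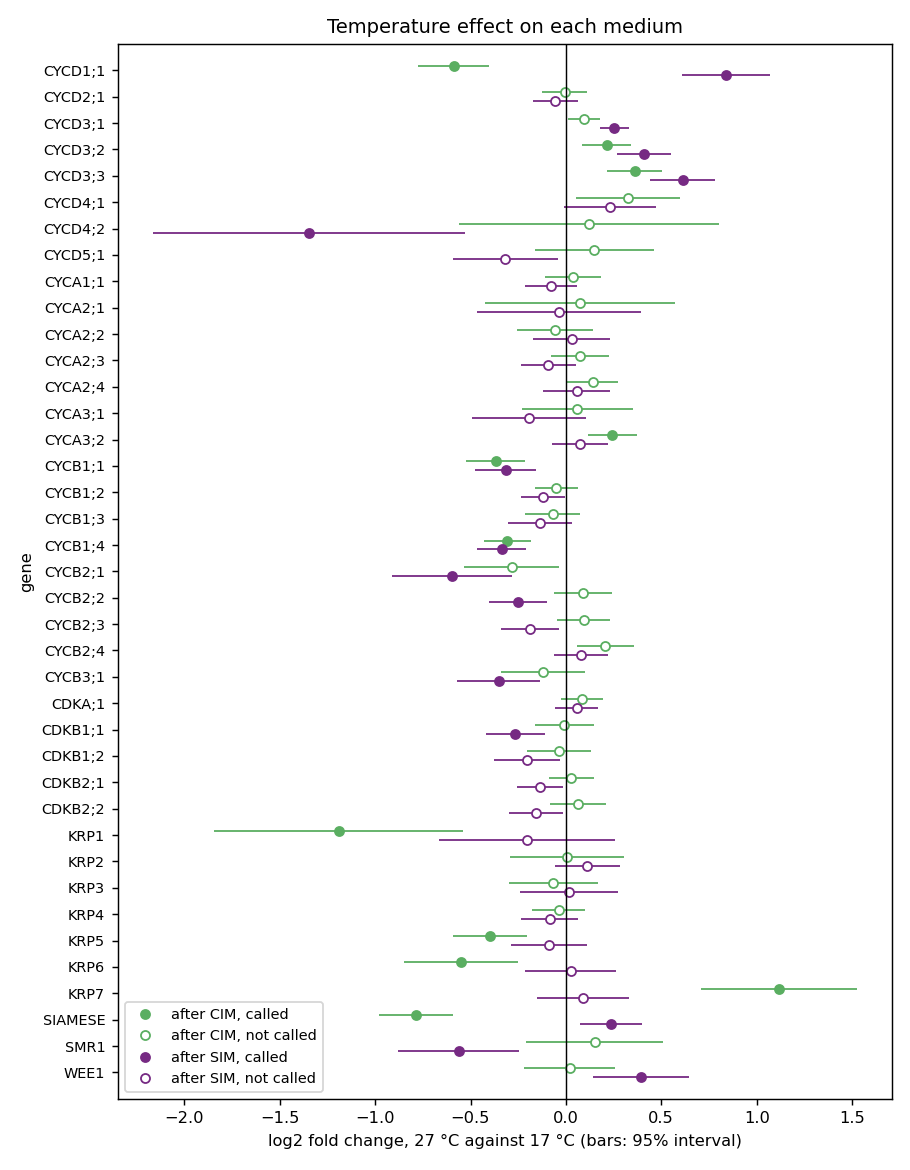
Log2 difference of each gene between 27 °C and 17 °C on CIM and on SIM, with the 95% interval as bars. SIAMESE, CYCD1;1 and KRP7 lie at different values on the 2 media, and B-type cyclins lie mostly below 0 on SIM.

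Whether the effect of temperature differed between SIM and CIM explants was tested directly, as the effect on SIM minus the effect on CIM. The SIM explants had been on CIM for 4 days before, so medium and time in culture cannot be told apart in this difference. By edgeR's quasi-likelihood test 2 of 39 genes had a higher and 3 a lower difference, where 18.5% of all genes were called, 8.26% higher and 10.2% lower. The median of the set was −0.08, beside −0.02 over all genes. CYCD1;1 changed sign between media, by 1.43 ± 0.15 log2 units (adjusted p = 8.63e-09), lower at 27 °C on CIM and higher on SIM. The difference of SIAMESE was 1.02 ± 0.13 (adjusted p = 2.81e-07), from a lower level at 27 °C on CIM. Its higher level at 27 °C on SIM, given above, lost its call in several alternatives, so its change of sign is not secure. The difference of KRP7 was −1.03 ± 0.24 (adjusted p = 0.00206), from a higher level at 27 °C on CIM to a log2 difference on SIM that was not called. These 3 differences between media held in all 20 alternative analyses. SMR1 (−0.71 ± 0.24, adjusted p = 0.0369) and CYCB2;2 (−0.34 ± 0.11, adjusted p = 0.0455) held in 11 and 4 of 20. SMR1 lost its call without any 1 of 7 libraries (library 2 or 3 of CIM at 17 °C, 1 or 3 of CIM at 27 °C, 2 of SIM at 17 °C, 2 or 3 of SIM at 27 °C), with adjusted p up to 0.15. CYCB2;2 lost it without any 1 of 11 of the 12 cultured libraries, the exception being library 2 of CIM at 27 °C, with adjusted p up to 0.268. The differences of KRP1 (0.99 ± 0.41, adjusted p = 0.097), KRP6 (0.57 ± 0.19, adjusted p = 0.0573) and CYCD4;2 (−1.47 ± 0.55, adjusted p = 0.0577) did not pass. The CYCD3 genes, called on SIM in every case, had differences of 0.16, 0.20 and 0.25 that did not pass either (adjusted p = 0.0854, 0.273 and 0.216), so a different effect of temperature on the 2 media was not shown for them.

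**Figure D5:**
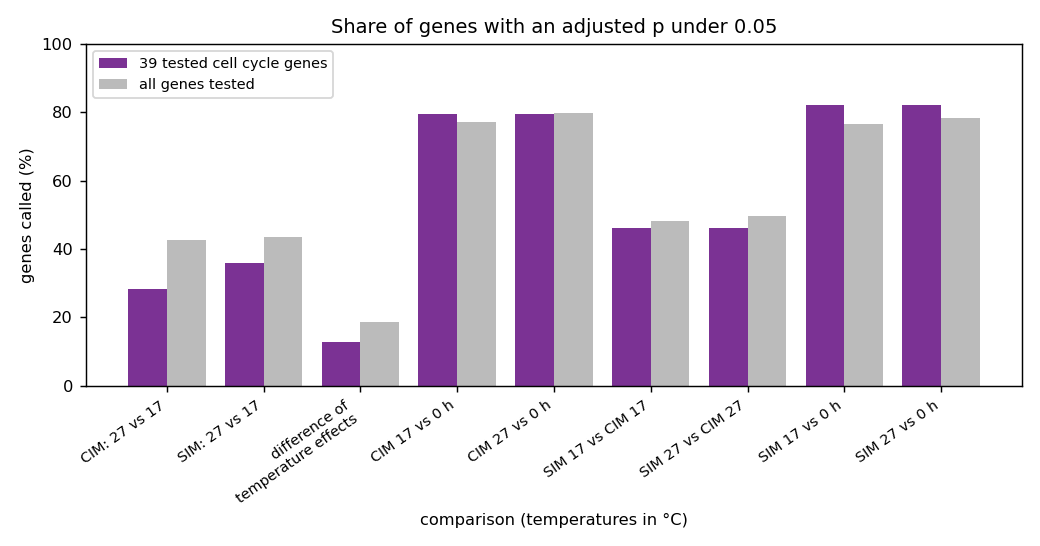
Percent of the 39 tested genes (purple) and of all 20704 tested genes (grey) with an adjusted p under 0.05 in each of the 9 comparisons. In both temperature comparisons and in their difference the cell cycle genes lie below the grey bar. The call rates of the set were 28.2%, 35.9% and 12.8% there.

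Partners and targets of the cyclins and CDKs were counted in lists chosen by function. Over all genes, 37.7% rose and 39.5% fell on CIM at 17 °C, and 39.5% and 40.4% at 27 °C. All 9 genes of the retinoblastoma-related and E2F list rose on CIM at both temperatures. E2FA, an activator of S phase genes, rose by 1.41 and 1.43 log2 units at 17 °C and 27 °C (adjusted p = 3.87e-14 and 1.47e-14, edgeR), and RBR1 by 0.54 and 0.63. The median of the list was 0.64 and 0.72. At 27 °C the calls of E2FB (0.32, adjusted p = 0.133) and DPA (0.30, adjusted p = 0.154) were lost with 0 h library 2 alone, and that of DPA also without 0 h library 3 (0.27, adjusted p = 0.0832) or library 1 of CIM (0.23, adjusted p = 0.138). In the DNA synthesis list 5 of 7 genes rose at each temperature, among them ORC1B, a subunit of the origin recognition complex, by 1.24 at 17 °C (adjusted p = 5.72e-15), and CDC6, which loads the replicative helicase, by 1.26 and 1.59. In the mitosis and cytokinesis list 4 of 9 rose at 17 °C and 5 at 27 °C, not far from the share of all genes, with AUR3, an Aurora kinase, by 1.31 and 1.19 and HINKEL, a kinesin of the cell plate, by 0.90 and 0.57. The medians were 0.80 and 0.93 in the DNA synthesis list and 0.24 and 0.23 in the mitosis list, and no gene of these 3 lists fell in that step.

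Between temperatures, 21.6% of all genes were higher and 21.0% lower on CIM, and 20.7% and 22.9% on SIM. HINKEL was lower at 27 °C on CIM by 0.33 log2 units (adjusted p = 1.01e-07) and on SIM by 0.38 (adjusted p = 3.02e-08), and 2 of 9 genes of its list were lower on each medium with none higher, about the share of all genes. Of the 9 retinoblastoma and E2F genes, none was called on CIM, and on SIM E2FA was called lower, a call lost without any 1 of 5 SIM libraries (adjusted p = 0.0796 to 0.134) and in the DESeq2 test. Of the 4 MYB3R genes, 3 were higher at 27 °C on CIM, with MYB3R1, a regulator of mitotic genes, at 0.36 (adjusted p = 6.85e-08), and on SIM 1 was higher and 1 lower. Of 5 activators of the anaphase-promoting complex, which marks mitotic cyclins for breakdown, 2 were higher on CIM and none was called on SIM. From CIM to SIM at 27 °C, where 24.9% of all genes rose and 24.8% fell, CCS52A1, an activator known for endoreduplication, rose by 0.67 (adjusted p = 2.34e-06), while 3 others of that list fell. CYCD6;1, a D-type cyclin of formative divisions in the root, was lower at 27 °C on SIM by 1.45 log2 units (adjusted p = 3.65e-08) and rose by 1.61 from CIM to SIM at 17 °C (adjusted p = 6.96e-09). It was counted in a list of 4 with SMR4, SMR5 and SMR7, of which 1 was higher and 1 lower at 27 °C on SIM and none was called on CIM. The higher one was SMR4 (0.67, adjusted p = 0.021), a call lost without any 1 of 4 SIM libraries and in the DESeq2 test (adjusted p = 0.0505 to 0.0871). On CIM at 27 °C, 2 of the 4 were lower than at 0 h and none was higher, and at 17 °C none was called. Of 7 CDK-activating kinase and CKS genes, 3 rose and 2 fell on CIM at 17 °C and 4 rose and 1 fell at 27 °C, beside 37.7% and 39.5% of all genes that rose and fell at 17 °C and 39.5% and 40.4% at 27 °C.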

How the data were processed

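Messenger RNA of 15 samples (5 groups of 3) was measured from RNeasy extracts with the KAPA Stranded mRNA-seq kit. The authors deposited counts, whole numbers for each annotated gene, which were taken here as numbers of reads. The submitters' processing notes name FastQC 0.11.7, Bowtie2 2.3.4.3, SAMtools 1.9, bedtools 2.26.0 and the TAIR10 build, with no role or order. The use of strand, the handling of duplicates and of reads with several matches, and the choice of exon or gene counting: not given in the sources used here. For 27 values over all genes the count reached the length of the gene, so abundant transcripts may be read too low.

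All 15 libraries entered 1 edgeR 4.0.16 quasi-likelihood fit (R 4.3.3, limma 3.58.1) on TMM-scaled counts of the 20704 genes that passed filterByExpr, with a term per group. Benjamini-Hochberg adjustment was over all of these genes, with a threshold of 0.05, and intervals are at 95%. Levels in CPM use TMM-scaled library sizes and are given as mean ± SD, and log2 changes carry their standard error. The 9 comparisons were 27 °C against 17 °C on each medium, the difference of these effects, CIM and SIM against 0 h, and SIM against CIM. Alternatives were DESeq2 1.42.0 (size factors and Wald test), other filters, a replicate block, the compared libraries alone, each library left out, 0 h library 2 alone, the close pair of CIM libraries at 27 °C merged, and counts corrected for positions counted once. Tables, sequences and figures were made with Python 3.11.15, pandas 2.3.3 and matplotlib 3.10.9.

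All 40 loci are accounted for, and values are printed for those called in a temperature comparison or changed most in a step. The members, lists and tests were chosen with earlier results of these data known. The files and the reference annotation shared 27998 nuclear genes, all on the same chromosome, and 21.5% had the same start and end. Gene coordinates are therefore those of the deposited table (TAIR10), and promoter sequences are from RefSeq (TAIR10.1). The genes SMR2, SMR3, SMR6 and SMR8 had no symbol in the reference and were not used.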

Additional observations from a re-analysis of the deposited data

Results flagged for a closer look

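The effect of 27 °C against 17 °C differed between SIM and CIM for 5 of the 39 tested genes and 3 of the 45 in the other cell cycle lists, by a test of the difference itself (the interaction term in edgeR's quasi-likelihood test). Over all genes 18.5% passed, so both shares lay below the background. The differences, SIM minus CIM on the log2 scale, were 1.43 for CYCD1;1, 1.02 for SIAMESE, −1.03 for KRP7, −0.71 for SMR1 and −0.34 for CYCB2;2. Outside the 40 genes they were −0.26 for MYB3R1, −0.41 for EDE1, a microtubule protein of the endosperm and of mitosis, and −0.97 for CYCD6;1. CYCD1;1, SIAMESE and KRP7 passed in all 20 alternative analyses. The MYB3R1 call was lost in the DESeq2 test (adjusted p = 0.0526), and the CYCD6;1 call was lost in 6 alternatives, with −0.62 (adjusted p = 0.257) without library 2 of CIM at 27 °C. EDE1 lost its call without any 1 of 10 libraries and in 6 other alternatives, with -0.30 (adjusted p = 0.252) without library 1 of CIM at 27 °C. All groups held 3 libraries, too few for a test of a single outlying library within a group.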

How the results depend on the processing

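No log2 change of the 40 genes turned its direction where it was called, over 5104 recomputed values, of which 4842 kept their side of the threshold, 211 lost it and 51 gained it. The DESeq2 Wald test called 9 in place of 14 genes for temperature on SIM and 3 in place of 5 for the difference between media. With counts corrected for positions counted once it was 17 and 7, and 21 in place of 18 for SIM against CIM at 27 °C. With each library left out in turn, the number called ranged from 9 to 12 for temperature on CIM, 12 to 14 on SIM and 3 to 6 for their difference, with 3 without library 3 of CIM at 27 °C. It ranged from 26 to 31 and 28 to 31 for CIM at 17 °C and 27 °C against 0 h, 16 to 17 and 14 to 17 for SIM against CIM, and 30 to 32 and 28 to 31 for SIM against 0 h. With the replicate number as a block, 11, 14, 5, 31, 31, 18, 17, 32 and 32 genes were called in the 9 comparisons. Correlations of deviations from group means were −0.23 to 0.113 for equal and −0.10 to 0.206 for different library numbers over 15979 genes, so no pairing by number was seen. Most pairs of libraries within groups differed by no more than sampling noise, so this check could miss a pairing. With the close pair of CIM libraries at 27 °C merged, 11 genes were called for temperature on CIM and 5 for the difference. Of 180 calls in the other cell cycle lists, 132 held in all alternatives and 0 reversed. At this depth genes of a few CPM, such as CYCD4;2 and KRP1 on CIM, rest on few reads, and the depth does not resolve CYCD7;1.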
